A study of Mus musculus with 2 samples.

Results

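The 10 genes described here are the Notch ligands Dll1 and Dll3, the receptors Notch1, Notch2 and Notch3, the receptor-modifying enzyme Lfng, and the transcriptional repressors Hes1, Hes5, Hes6 and Hey1. They were taken by symbol from the gene table, where all 10 were found among 32285 genes. Mouse embryonic stem cells of the strain labelled R1 had been cultured for 72 hours in N2B27 medium, and single cells of each culture were captured in droplets and sequenced from the 3′ end of polyA RNA. In the condition called LB cells grew on gelatin with BMP4 and the self-renewal cytokine LIF added. In the condition called LBPXRS the cells grew on fibronectin, and LIF and BMP4 were joined by 4 compounds: Xav939, an inhibitor of tankyrase that lowers WNT signalling, SB431542, an inhibitor of activin and NODAL receptors, PD0325901, an inhibitor of MEK, and Resorcyclic lactone, whose target the labels do not name. The series addresses how the FGF, TGF-β and WNT pathways bear on the state that BMP4 induces. Each condition is 1 library, so medium, substrate and culture cannot be told apart, and differences are given by size with no p-value and no replicate check.

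Notch signalling passes between touching cells. A Delta or Jagged ligand on one cell pulls on a Notch receptor on its neighbour, the receptor is cut by an ADAM protease and by γ-secretase, and its released intracellular domain joins the DNA-binding protein RBPJ and a Mastermind coactivator to switch on genes such as those of the Hes and Hey families. In the embryo the pathway is known for the segmentation of paraxial mesoderm, where Dll1, Dll3, Lfng and several Hes genes act together, and for holding back neural differentiation.

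After filtering, LB gave 1783 cells with 45490517 UMIs (unique molecular identifiers, each standing for 1 captured RNA molecule) and a median of 25418 UMIs per cell, and LBPXRS gave 2705 cells with 51832444 UMIs and a median of 19058. Levels are UMIs per 1000000 of the library (CPM), and the ranges after them are exact 95% Poisson intervals that cover counting error only. The naive pluripotency markers summed to 923 CPM in LB and 1745 CPM in LBPXRS, with 10 of 10 detected in each, and all 6 markers of 2-cell-like cells were at 0 in both libraries. The libraries also stood apart by chromosome: over genes with at least 5 CPM in either library, the log2 ratio (LBPXRS over LB) had a median of -0.61 on chromosome 8, -0.62 on chromosome 11 and -3.59 over 4 genes of chromosome Y, against -0.19 to -0.0052 on each of the other 18 chromosomes. The UMIs of all chromosome Y genes together went the other way from the median of those 4 genes, with 11835 in LB and 19911 in LBPXRS. None of the 10 genes lies on chromosomes 8, 11 or Y. Both cultures are labelled R1; whether they were genetically the same was not tested, and such a difference cannot be told apart from the medium in any value that compares the libraries. The libraries shared 10 barcodes, 8 of them kept.

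Sequence upstream of the start site was available for 8 of the 10 genes, and 3 stretches are shown: Hes5 and Lfng because they hold the core letters bound by RBPJ, and Dll3 as the ligand with the lower level in LBPXRS. They are the 250 bases before a RefSeq start site, 5′ to 3′ on the gene's strand, from GRCm38.p6, the assembly also called mm10. Capitals mark GTGGGAA or its reverse complement TTCCCAC.
Hes5, chr4:154960673-154960922, plus strand: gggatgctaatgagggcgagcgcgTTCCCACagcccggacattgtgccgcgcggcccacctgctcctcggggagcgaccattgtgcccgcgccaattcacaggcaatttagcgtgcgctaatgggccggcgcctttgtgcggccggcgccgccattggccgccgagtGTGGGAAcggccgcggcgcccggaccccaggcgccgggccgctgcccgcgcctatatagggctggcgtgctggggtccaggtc
Lfng, chr5:140607091-140607340, plus strand: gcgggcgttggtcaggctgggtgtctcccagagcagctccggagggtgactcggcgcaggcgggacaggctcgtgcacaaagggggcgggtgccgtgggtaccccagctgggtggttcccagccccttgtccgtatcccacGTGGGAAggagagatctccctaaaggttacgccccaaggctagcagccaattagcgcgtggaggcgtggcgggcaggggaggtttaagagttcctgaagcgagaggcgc
Dll3, chr7:28301786-28302035, minus strand: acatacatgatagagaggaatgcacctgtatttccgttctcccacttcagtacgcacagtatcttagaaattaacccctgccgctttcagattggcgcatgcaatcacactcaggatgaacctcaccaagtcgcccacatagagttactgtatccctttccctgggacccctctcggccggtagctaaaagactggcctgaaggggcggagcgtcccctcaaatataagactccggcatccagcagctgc
The Hes5 stretch held 2 such matches in opposite orientation, 1 beginning 226 bases and 1 beginning 83 bases before the start site. The Lfng stretch held 1, at 109 bases, and it overlaps a class C box (CACGNG, letters bound by Hes and Hey proteins, read on both strands) that begins at 112 bases. Searched on both strands of windows that add 50 bases after the start site, GTGGGAA was found in 6.38% of all 32851 windows and the class C box in 27.5%. The Dll3 window held neither, nor the N-box CACNAG, which is in 42.5% of windows, nor the T-box letters TCACACC, which are in 3.98% and in no window of the 10 genes. The windows of Dll1, Notch1, Notch2, Notch3 and Hes6 held no GTGGGAA. A match in these letters is a description of the sequence and not a measured binding site.

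Between the libraries, Hes1 had a higher level in LBPXRS, at 137 against 75.5 CPM. Dll3, Notch1, Notch2, Notch3, Lfng, Hes5, Hes6 and Hey1 had lower values there, and Dll1 was near 1 CPM in both. Of the 10 genes, 6 reached 5 CPM in either library, and Dll3 and Notch2 were the 2 of these 6 that were at least 2-fold lower in LBPXRS on the log2(CPM + 1) scale. Of all 9721 genes at that level, 11.1% were at least 2-fold lower and 8.25% at least 2-fold higher, so such a difference was common, and 2 of 6 is too small a count to set against it. No member was at least 2-fold higher, and none was 4-fold lower or higher, where 3.23% and 1.99% of all 9721 genes were. The median log2 ratio was -0.83 over the 6 genes and -0.16 over all 9721, with 1 gene above 0 and 5 below.

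**Figure D1:**
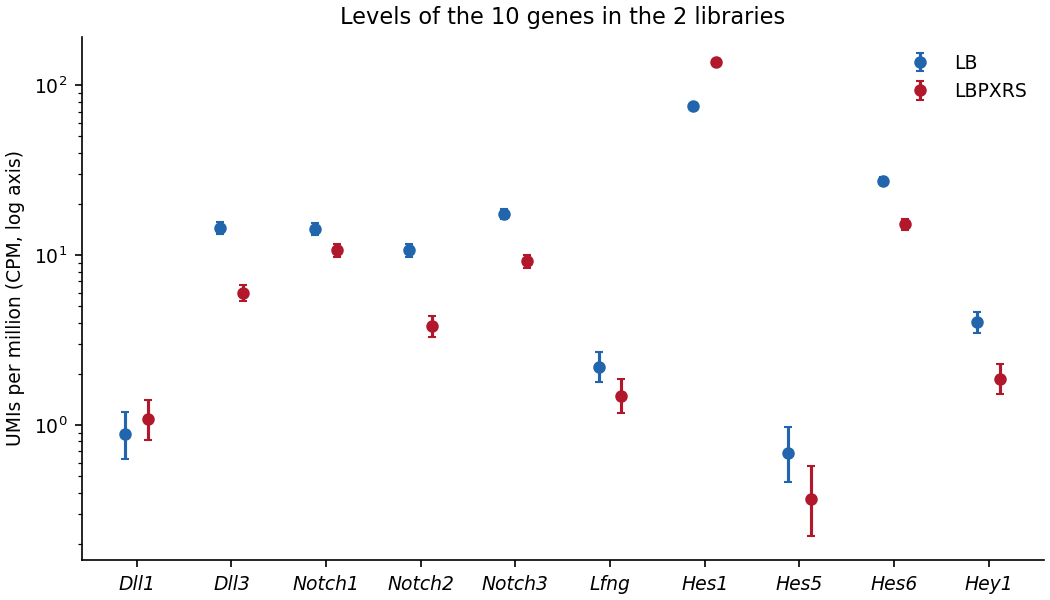
Levels of the 10 genes in LB (blue) and LBPXRS (red), in CPM on a log axis, with exact 95% Poisson intervals for counting error and 1 library per condition. Hes1 is the gene whose LBPXRS point lies clearly above its LB point, at 137 against 75.5 CPM, while the receptors, Dll3, Hes6 and Hey1 lie lower in LBPXRS.

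Of the ligands, Dll3 (ENSMUSG00000003436, chr7:28293553-28302238, minus strand) encodes a divergent Delta protein that is known to act inside the cell that makes it and not to activate receptors on neighbours. LB held 658 Dll3 UMIs, a level of 14.5 CPM (13.4 to 15.6), where LBPXRS held 310, a level of 5.98 CPM (5.33 to 6.69). The intervals did not overlap, and the LB level was 2.42 times that of LBPXRS (counting interval 2.11 to 2.78), a log2 ratio of -1.15. A UMI of Dll3 was found in 383 LB cells (21.5%) and 285 LBPXRS cells (10.5%). When every cell was thinned to 5000 UMIs so that depth was the same, the share was 6.92% (exact binomial interval 5.77 to 8.22) over 1733 LB cells, against 2.59% (2.02 to 3.28) over 2621 LBPXRS cells. The fullest LB cell held 13 Dll3 UMIs and the fullest LBPXRS cell 3.

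Dll1 (ENSMUSG00000014773, chr17:15367354-15376872, minus strand), the main Delta ligand of early mesoderm, was scarce in both libraries. Its 40 LB UMIs gave 0.879 CPM (0.628 to 1.20) and its 56 LBPXRS UMIs gave 1.08 CPM (0.816 to 1.40), and these intervals overlapped. The ratio of LBPXRS to LB was 1.23 with a counting interval from 0.804 to 1.89, so a difference in either direction was not detectable at this depth. The LB UMIs lay in 34 cells, 29 of them with 1 UMI, 4 with 2 and 1 with 3. The LBPXRS UMIs lay in 43 cells, 39 with 1 UMI and 2 with 2, while 1 cell held 5 and another held 8, so 13 of its 56 UMIs came from 2 cells.

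Notch1, Notch2 and Notch3 all had lower values in LBPXRS, by unequal amounts. Notch2 (ENSMUSG00000027878, chr3:98013527-98150361, plus strand) had 485 UMIs in LB and 198 in LBPXRS, or 10.7 CPM (9.73 to 11.7) and 3.82 CPM (3.31 to 4.39). This was the widest gap of the 3, with LB 2.79 times LBPXRS (2.36 to 3.31) and a log2 ratio of -1.27. Notch3 (ENSMUSG00000038146, chr17:32120820-32166852, minus strand) had 796 and 476 UMIs, or 17.5 CPM (16.3 to 18.8) and 9.18 CPM (8.38 to 10.0), a log2 ratio of -0.86. Notch1 (ENSMUSG00000026923, chr2:26457903-26516663, minus strand) had 650 and 552 UMIs, or 14.3 CPM (13.2 to 15.4) and 10.6 CPM (9.78 to 11.6), a log2 ratio of -0.39. The counting intervals of the LB-to-LBPXRS ratio were 1.70 to 2.14 for Notch3 and 1.20 to 1.51 for Notch1, so all 3 receptors differed by more than counting error. The other receptor, Notch4, outside the 10 genes, had 84 and 34 UMIs, and its LBPXRS level was 0.355 times that of LB (0.231 to 0.535). In thinned cells Notch2 was found in 4.5% of LB and 2.02% of LBPXRS cells, Notch3 in 8.89% and 3.97%, and Notch1 in 6.35% and 5.68%. With another random seed for the thinning, the Notch3 shares were 9.23% and 5.42%, a narrower gap. The Notch1 shares had overlapping binomial intervals (5.25 to 7.6 and 4.83 to 6.64). Antisense transcripts share exons with Notch1 and Notch3: 0610009E02Rik, opposite Notch1, had 22 UMIs in LB and 43 in LBPXRS, and Gm17276, opposite Notch3, had 20 and 17, which is few beside the receptor counts. Whether counting used the strand is not given in the sources used here.

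Lfng (ENSMUSG00000029570, chr5:140607320-140615545, plus strand) encodes lunatic fringe, which adds sugars to Notch receptors and so alters which ligands they answer. It had 100 UMIs in LB and 77 in LBPXRS, or 2.20 CPM (1.79 to 2.67) and 1.49 CPM (1.17 to 1.86). The intervals overlapped narrowly, and the LB-to-LBPXRS ratio was 1.48 (1.09 to 2.02). No more than 3 Lfng UMIs were found in an LB cell and 2 in an LBPXRS cell.

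Among the repressors, Hes1 (ENSMUSG00000022528, chr16:30064384-30067796, plus strand) was the one of the 4 with a higher value in LBPXRS. It encodes a basic helix-loop-helix repressor that is the textbook target of Notch and also answers other signals. Its 3434 LB UMIs gave 75.5 CPM (73.0 to 78.1) and its 7082 LBPXRS UMIs gave 137 CPM (133 to 139.9), with no overlap. LBPXRS stood at 1.81 times LB (1.74 to 1.89), a log2 ratio of 0.85, which is short of 2-fold. In thinned cells the share with Hes1 was 26.5% in LB (24.4 to 28.6) and 44.0% in LBPXRS (42.1 to 45.9), and without thinning 63.0% and 81.0%. The median unthinned cell held 1 Hes1 UMI in LB and 2 in LBPXRS, while the fullest held 28 and 18.

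Hes6 (ENSMUSG00000067071, chr1:91411483-91414038, minus strand), a relative known to oppose Hes1 and to promote differentiation, had the other direction. It had 1237 UMIs in LB and 787 in LBPXRS, or 27.2 CPM (25.7 to 28.8) and 15.2 CPM (14.1 to 16.3), with LB 1.79 times LBPXRS (1.64 to 1.96). In thinned cells it was found in 12.6% of LB and 6.91% of LBPXRS cells. Hey1 (ENSMUSG00000040289, chr3:8663359-8667256, minus strand), a target of Notch known from the heart and vessels, had 183 and 97 UMIs, or 4.02 CPM (3.46 to 4.65) and 1.87 CPM (1.52 to 2.28), with LB 2.15 times LBPXRS (1.67 to 2.78). Hes5 (ENSMUSG00000048001, chr4:154960923-154962371, plus strand), a Notch target best known in neural progenitors, had 31 UMIs in LB and 19 in LBPXRS, or 0.681 CPM (0.463 to 0.967) and 0.367 CPM (0.221 to 0.572). The Hes5 intervals overlapped, the ratio of LB to LBPXRS was 1.86 (1.02 to 3.48), and no cell held more than 2 UMIs. The neural marker list summed to 39.5 CPM in LB, with Neurog1 at 0, and 14.5 CPM in LBPXRS, with Neurog2 and Dcx at 0. Its genes did not all go that way. In LB and LBPXRS, Sox1 had 3 and 66 UMIs and Neurog1 0 and 4. Tubb3 was at 17.6 and 8.76 CPM and Pax6 at 0.945 and 0.174 CPM. The part of these neural genes in the Hes values was not tested.

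LB was a mixture of cell states, and the genes were next read in each. The cells of each library were clustered without the 10 genes and without 48 other Notch pathway genes, so that the clusters did not rest on them. In LB, 602 cells (33.8%) were naive pluripotent-like (named from Klf4, Esrrb, Zfp42, Nanog and other markers), 304 were formative or primed pluripotent-like (Fgf5, Dnmt3b, Pou3f1, Zic2), 297 were primitive streak-like (T, Mixl1, Fgf8, Wnt3, Evx1, Sp5) and 325 were lateral or extraembryonic mesoderm-like (Hand1, Foxf1, Bmp4, Pitx1). The other 255 LB cells lay in 4 clusters without a name, as did all 7 LBPXRS clusters. Names were rebuilt here from markers and rest on differences within a library. All values by class come from 1 library, and their intervals cover counting error only.

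Among the 4 named classes Dll1 had its highest value in streak-like cells, and Dll3 was high in streak-like and mesoderm-like cells. Dll3 stood at 5.80 CPM (4.71 to 7.06) in naive-like cells, 9.45 CPM (7.50 to 11.7) in formative-like cells, 33.6 CPM (29.4 to 38.3) in streak-like cells and 26.7 CPM (23.3 to 30.4) in mesoderm-like cells. The last 2 overlapped, and their order turned round when the members were used in the clustering, where the log2 ratio of Dll3 over the other LB cells was 1.07 in streak-like and 1.63 in mesoderm-like cells. The LBPXRS level of Dll3 was 1.03 times the naive-like level, with a counting interval from 0.820 to 1.31. Against these cells the log2 ratio of Dll3 was 0.039, of the opposite sign to that against all LB cells. Dll1 had 19 of its 40 LB UMIs in streak-like cells, 2.80 CPM (1.69 to 4.38), against 0.293 CPM (0.0950 to 0.683) in naive-like cells and 0.239 CPM (0.0290 to 0.865) in mesoderm-like cells. The highest Dll1 value among clusters of at least 50 cells, 5.76 CPM, was in an unnamed LB cluster of 60 cells, but it rests on 4 UMIs, and its interval (1.57 to 14.8) contains that of streak-like cells.

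The receptors had their lowest values in naive-like cells among the 4 named classes, while an unnamed cluster of 154 cells, with Klf2, Esrrb, Tfcp2l1 and Fgf4 raised, had lower values still. In that cluster Notch1 was 5.98 CPM (3.75 to 9.06), Notch2 3.26 CPM (1.69 to 5.70) and Notch3 7.34 CPM (4.84 to 10.7), of which only the Notch1 interval lay apart from that of naive-like cells. Notch1 was 10.6 CPM in naive-like and 12.1 CPM in formative-like cells, whose intervals overlapped, and 21.5 and 21.3 CPM in streak-like and mesoderm-like cells, whose intervals also overlapped. Notch2 was 5.44 CPM (4.39 to 6.67) in naive-like cells and 12.2, 15.9 and 18.1 CPM in formative-like, streak-like and mesoderm-like cells, each neighbouring pair of which had overlapping intervals. Notch3 was 8.20 CPM (6.89 to 9.67) in naive-like cells, 20.8 CPM in streak-like, 23.6 CPM in formative-like and 32.0 CPM (28.2 to 36.0) in mesoderm-like cells, with the middle 2 not separated. The LBPXRS level divided by the naive-like LB level was 1.01 for Notch1 (0.848 to 1.20), 1.12 for Notch3 (0.926 to 1.36) and 0.702 for Notch2 (0.546 to 0.908). Notch2 was the receptor whose LBPXRS value lay below the naive-like cells by more than counting error, though not below the 3.26 CPM of the unnamed cluster. The naive-like cells were chosen by their markers, so this is a description of which LB cells held the receptor counts.

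**Figure D2:**
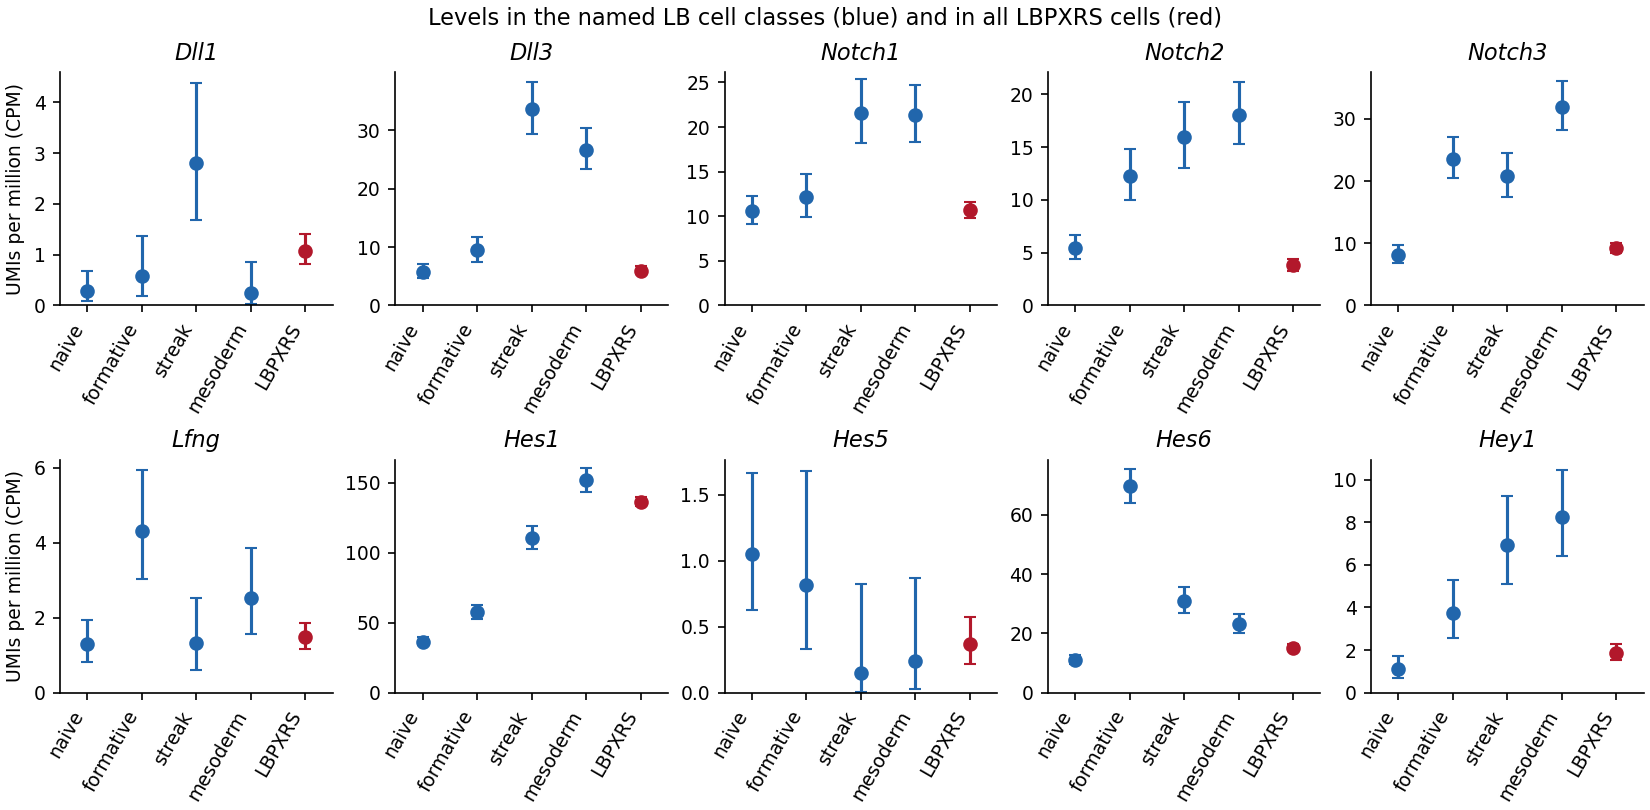
Levels of each gene in CPM in the 4 named LB classes (blue) and in all LBPXRS cells (red), with exact 95% Poisson intervals and axes from 0. The Dll3 and Notch1 points of LBPXRS lie at the level of naive-like LB cells, whereas the Hes1 point of LBPXRS, at 137 CPM, lies far above the naive-like point at 36.6 CPM.

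The repressors did not all follow the same order over the classes. Hes1 was 36.6 CPM (33.8 to 39.6) in naive-like cells, 57.6 CPM (52.6 to 62.9) in formative-like, 111 CPM (103 to 119) in streak-like and 152 CPM (144 to 160.4) in mesoderm-like cells, with no overlap between neighbours. The thinned shares of naive-like and formative-like cells with Hes1, 18.2% and 17.2%, did not follow that order, so those 2 classes are not ordered here. LBPXRS stood at 3.73 times the naive-like level (3.44 to 4.06), a log2 ratio of 1.87, and at 0.90 times the mesoderm-like level (0.848 to 0.956). Among clusters of at least 50 cells, the Hes1 level ran from 36.6 to 152 CPM in LB and from 111 to 217 CPM in LBPXRS, so every one of the 7 LBPXRS clusters lay above the naive-like LB cells. The LBPXRS cluster at 217 CPM held 84 cells with a median of 3424.5 UMIs, the lowest depth among the LBPXRS clusters. Its value rests on 89 Hes1 UMIs.

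Hes6 instead was highest in formative-like cells, at 69.5 CPM (64.0 to 75.3), against 11.1 CPM (9.60 to 12.8) in naive-like, 23.1 CPM in mesoderm-like and 31.0 CPM in streak-like cells. After thinning, 30.7% of formative-like cells held a Hes6 UMI, against 6.18% of naive-like cells. The LBPXRS level of Hes6 was 1.37 times the naive-like LB level (1.16 to 1.61) and 0.218 times the formative-like level. Hey1 was 1.11 CPM (0.670 to 1.74) in naive-like, 3.73 CPM in formative-like, 6.93 CPM in streak-like and 8.26 CPM (6.43 to 10.5) in mesoderm-like cells, with each of the last 3 overlapping its neighbour. The LBPXRS level of Hey1 was 1.68 times the naive-like level (1.02 to 2.91), so Hey1, like Hes6, was lower in LBPXRS than in all LB cells and higher than in naive-like ones. Hes5 was 1.05 CPM (0.625 to 1.67) in naive-like cells, from 18 of its 31 LB UMIs, and 0.816 CPM (0.328 to 1.68) in formative-like cells, from 7. Streak-like and mesoderm-like cells held 1 and 2 UMIs, with intervals up to 0.822 and 0.865 CPM. These intervals all overlapped, so Hes5 is not ordered over the classes. Lfng was 4.31 CPM (3.04 to 5.95) in formative-like cells and 1.29 CPM (0.807 to 1.95) in naive-like cells, and its mesoderm-like value of 2.51 CPM overlapped both. At a finer clustering, a trophoblast-like cluster of 48 cells (Gata3, Tfap2a, Krt7, Wnt7b) had Lfng at 8.56 CPM (4.68 to 14.4) from 14 UMIs, against 3.87 CPM (2.53 to 5.67) in formative-like cells, with overlapping intervals.

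Free RNA can give UMIs in cells that do not make a gene, so the level of a gene foreign to naive-like cells was read beside these. Hand1, a mesoderm gene at 84.1 CPM over LB, stood at 2.11 CPM in naive-like cells and was found in 0.668% of them after thinning (0.182 to 1.70), at a median depth of 28096 UMIs. T, at 101 CPM over LB, was found in 1.5% of them. For the 10 genes the thinned shares in naive-like cells were 2.84% for Dll3, 4.51% for Notch1, 1.84% for Notch2, 5.01% for Notch3, 18.2% for Hes1 and 6.18% for Hes6. The shares of Dll1, Lfng, Hes5 and Hey1 there were each at or below 0.668%, but these genes are far scarcer in LB than Hand1, so the shares do not compare like with like. Set against each gene's own LB level, the naive-like level was 2.51% for Hand1 and 3.83% for T. For the 10 genes the same measure ran from 27.6% for Hey1 and 33.3% for Dll1 to 74.2% for Notch1 and 155% for Hes5, all above both reference genes. The Dll1 value rests on 5 UMIs and the Hes5 value on 18.

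A finer clustering at Leiden resolution 1, also made without the 10 genes, split the mesoderm-like cells and changed the reading of Dll3, Hey1 and Notch3. One cluster of 173 cells, led by Lhx1, Mesp1 and Cyp26a1, drew 147 of its cells from the mesoderm-like class and 26 from the streak-like class; it was singled out after its values were seen. It had 7 primitive streak markers raised (Mixl1, Eomes, Fgf8, Wnt3, Gsc, Evx1 and Sp5), but markers of nascent mesoderm were more frequent among its 10 leading genes, so it was left unnamed. Mesp1, a factor of nascent mesoderm, stood at 291 CPM there and 11.5 CPM in the rest of LB. These cells were 9.70% of LB cells and held 8.66% of its UMIs, but 255 of the 658 Dll3 UMIs (38.8%) and 65 of the 183 Hey1 UMIs (35.5%). Dll3 was 64.7 CPM (57.0 to 73.2) there against 9.70 CPM in the other LB cells, and Hey1 was 16.5 CPM (12.7 to 21.0) against 2.84 CPM.

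The cluster that kept the mesoderm-like name, 160 cells led by Pitx1, Hoxb6 and Hoxc8, had 11 Dll3 UMIs, 2.45 CPM (1.22 to 4.39), and 12 Hey1 UMIs, 2.68 CPM (1.38 to 4.68). The mesoderm-like class was therefore above the other LB cells for Dll3 at the coarser clustering and below them at the finer one. For Hey1 the finer value was also the lower one, but its interval contains the 4.02 CPM of LB as a whole. Hes1 was high in both clusters, at 191 CPM (178 to 205) in the Mesp1-led cells and 130 CPM (119 to 141) in the Pitx1-led cells. Notch3 was 51.3 CPM (44.4 to 58.8) and 17.6 CPM (13.9 to 22.0), so that the Pitx1-led cells no longer stood above the 25.3 CPM (21.6 to 29.4) of formative-like cells. Notch1 was 27.4 and 17.4 CPM and Notch2 16.8 and 17.8 CPM. Without the Mesp1-led cells, the Dll3 level of LB, 9.70 CPM, was still above the 5.98 CPM of LBPXRS, but by less than 2-fold. With them LB stood at 2.42 times LBPXRS. A cluster of 18 LB cells led by Ackr3, Nrp1 and Plat had a Dll3 level of 84.3 CPM (43.6 to 147) from 12 UMIs, at a median depth of 7459.5 UMIs.

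**Figure D3:**
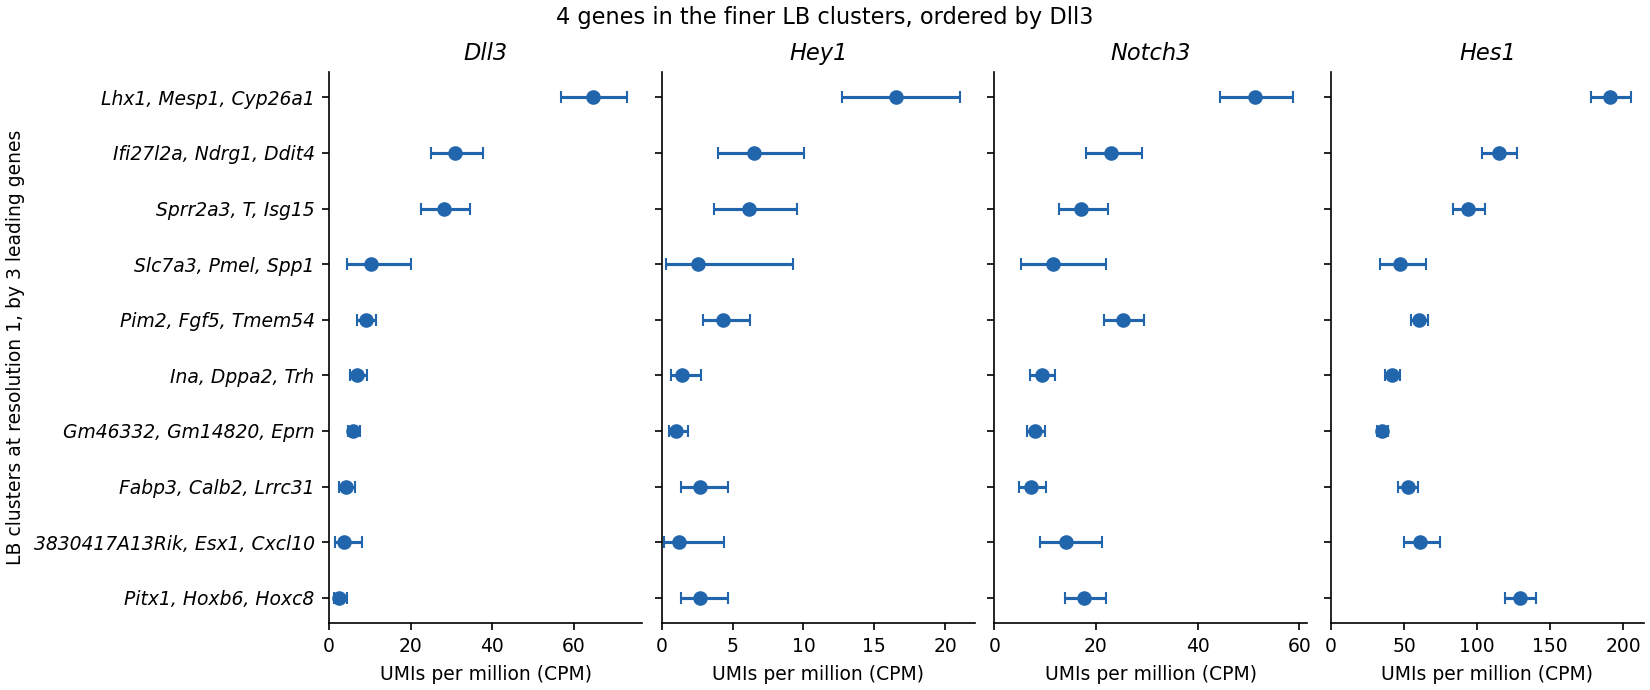
Levels of Dll3, Hey1, Notch3 and Hes1 in CPM in the LB clusters of at least 48 cells at resolution 1, each named by its 3 leading genes and ordered by Dll3, with exact 95% Poisson intervals. The cluster led by Lhx1, Mesp1 and Cyp26a1 has the highest point in all 4 panels, and the cluster led by Pitx1, Hoxb6 and Hoxc8 has the lowest Dll3 point and the second highest Hes1 point.

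The LB cells that carried Dll3 were then compared with those that did not, after thinning. Of 120 carriers, 42 were streak-like, 35 mesoderm-like, 18 formative-like and 17 naive-like, so 35.0% were streak-like where 16.7% of all thinned LB cells were. T was found in 48 of the 120 carriers and 262 of the 1613 other cells (16.2%), and Mesp1 in 38 (31.7%, 23.5 to 40.8) and 103 (6.39%, 5.24 to 7.69). Klf4, a naive marker, was in 9 carriers and 258 other cells. Among the other members, Notch3 was in 17.5% of Dll3 carriers and 8.25% of the rest, and Hes1 in 37.5% and 25.7%, in both cases without overlap of the intervals (11.2 to 25.5 against 6.95 to 9.70, and 28.8 to 46.8 against 23.5 to 27.9). In LBPXRS, 68 thinned cells carried Dll3, and Hes1 was in 42.6% of carriers and 44.0% of the rest. T had 4589 UMIs in LB and 3 in LBPXRS, and Mesp1 1623 and 28.

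Hes1 carriers in LB, 459 thinned cells, held Mesp1 in 15.9% and Hand1 in 23.1%, against 5.34% and 10.6% of the other cells. Hes6 carriers, 218 cells, held Fgf5 in 5.50% and Klf4 in 5.96%, against 1.58% and 16.8%. Hes1 was in 25.2% of Hes6 carriers (19.6 to 31.5) and 26.7% of the rest (24.5 to 29.0), which overlapped. Dll1 or Dll3 and at least 1 of Notch1, Notch2 and Notch3 were in the same thinned cell for 2.14% of the LB library (1.51 to 2.93) against 0.572% of LBPXRS (0.321 to 0.942). One of the 3 receptors without Dll1 or Dll3 was in 15.9% and 10.8%, and Dll1 or Dll3 without the 3 receptors in 5.37% and 2.59%. Jag1, Jag2 and Notch4 were not counted in these shares. A cell without a UMI at this depth may still make the RNA.

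The spread of Hes1 UMIs per cell was read beside the level. In thinned cells the variance divided by the mean, which is near 1 where only random sampling spreads the counts, was 1.03 in naive-like, 1.43 in formative-like, 1.42 in streak-like and 1.53 in mesoderm-like cells, and 1.22 in LBPXRS. This ratio can rise with the mean, which was 0.202, 0.236, 0.503 and 0.859 UMIs in the same 4 classes and 0.641 in LBPXRS. Spread and level are therefore not separated over these groups, though naive-like and formative-like cells, with close means, had unlike ratios. At least 3 Hes1 UMIs were found in 0.334% of naive-like cells, 8.78% of mesoderm-like cells and 4.08% of LBPXRS cells. That share also rises with the mean. For Dll3 the variance divided by the mean was highest, 1.83, in mesoderm-like cells, the class that the finer clustering split. It was 1.15 in streak-like cells, whose mean was close (0.172 against 0.176 UMIs). No naive-like cell held more than 1 Dll3 UMI after thinning, so the value there, 0.973, was set by sparsity and is not compared.

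**Figure D4:**
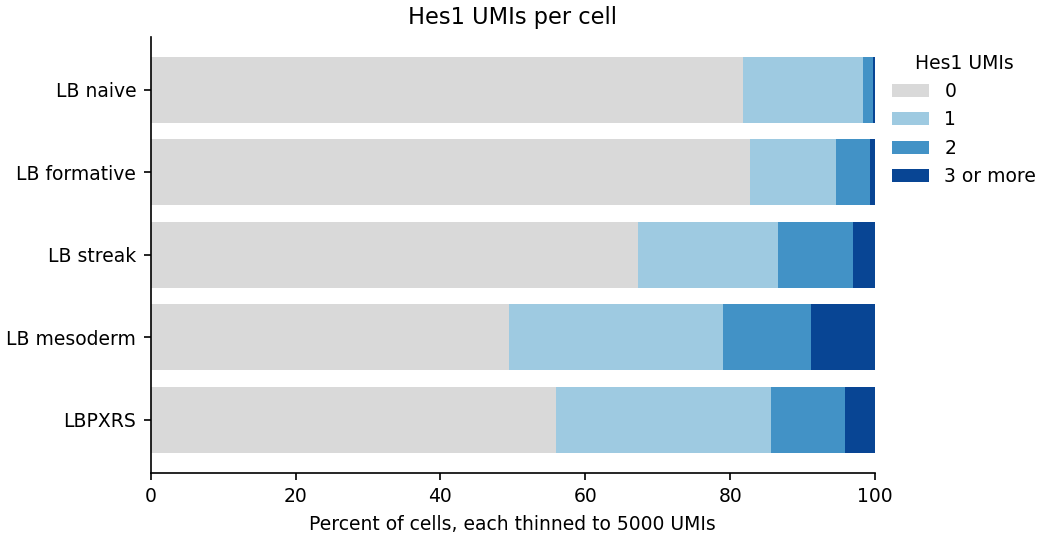
Percent of cells with 0, 1, 2 or at least 3 Hes1 UMIs after every cell was thinned to 5000 UMIs, in the 4 named LB classes and in LBPXRS. The bar of LBPXRS, with 56.0% of cells at 0, lies nearer to the mesoderm-like bar at 49.5% than to the naive-like bar at 81.8%.

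The rest of the pathway was read from a list of 48 further genes, of which 31 reached 5 CPM in either library. Their median log2 ratio was -0.08, with 12 above 0 and 19 below, beside -0.16 over all genes at that level. On the log2(CPM + 1) scale, the 3 genes at least 2-fold higher in LBPXRS were Mfng (manic fringe), at 4.99 CPM in LB and 25.1 CPM in LBPXRS, Poglut1, which adds glucose to Notch, at 20.2 and 43.0 CPM, and Dtx1 (Deltex, a ubiquitin ligase of Notch), at 19.4 and 40.5 CPM. Over all 9721 genes 8.25% were that much higher and 11.1% that much lower, so counts of 3 and 2 of 31 lie near the background. The 2 at least 2-fold lower on that scale were Dlk1, a non-canonical ligand, at 13.8 and 0.772 CPM, and Maml1, a Mastermind coactivator, at 8.51 and 2.59 CPM. By plain CPM, Mib2, a ubiquitin ligase of Notch ligands, at 6.20 and 12.6 CPM, and Nrarp would pass 2-fold as well. Maml1 and Rfng were the 2 of the 31 on chromosome 11, and none was on chromosome 8. By role, 3 of 4 glycosylation genes were above 0, as were 3 of 8 cleavage genes, 5 of 9 trafficking and ubiquitin genes and 1 of 7 nuclear complex genes, which was Rbpj. Over all genes 3922 of 9721 were above 0, and no role is singled out by these small counts.

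Among other targets and cofactors the directions were mixed. Nrarp, a feedback target of Notch and the only one of 7 other targets to reach 5 CPM, was at 7.61 CPM (6.83 to 8.45) in LB and 3.55 CPM in LBPXRS. In LB classes Nrarp ran from 4.33 CPM in naive-like to 7.70, 9.74 and 13.3 CPM in formative-like, streak-like and mesoderm-like cells, the last 3 overlapping their neighbours. Its LBPXRS level was 0.819 times the naive-like level (0.622 to 1.09), where that of Hes1 was 3.73 times. Rbpj, like Hes1, had the higher value in LBPXRS: it was 33.7 CPM in LB and 55.9 CPM in LBPXRS, with 50.8 CPM in naive-like, 23.9 in formative-like, 19.3 in streak-like and 22.7 in mesoderm-like cells. Mfng was 7.20 CPM in naive-like cells and 0.718 CPM in mesoderm-like cells. Heyl and Ripply2, a segmentation gene, had 0 UMIs in both libraries, which in LB allows up to 0.0811 CPM. Of the neurogenin genes, a family of proneural factors, Neurog1 had 0 UMIs in LB and 4 in LBPXRS, Neurog2 3 and 0, and Neurog3 8 and 1.

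**Figure D5:**
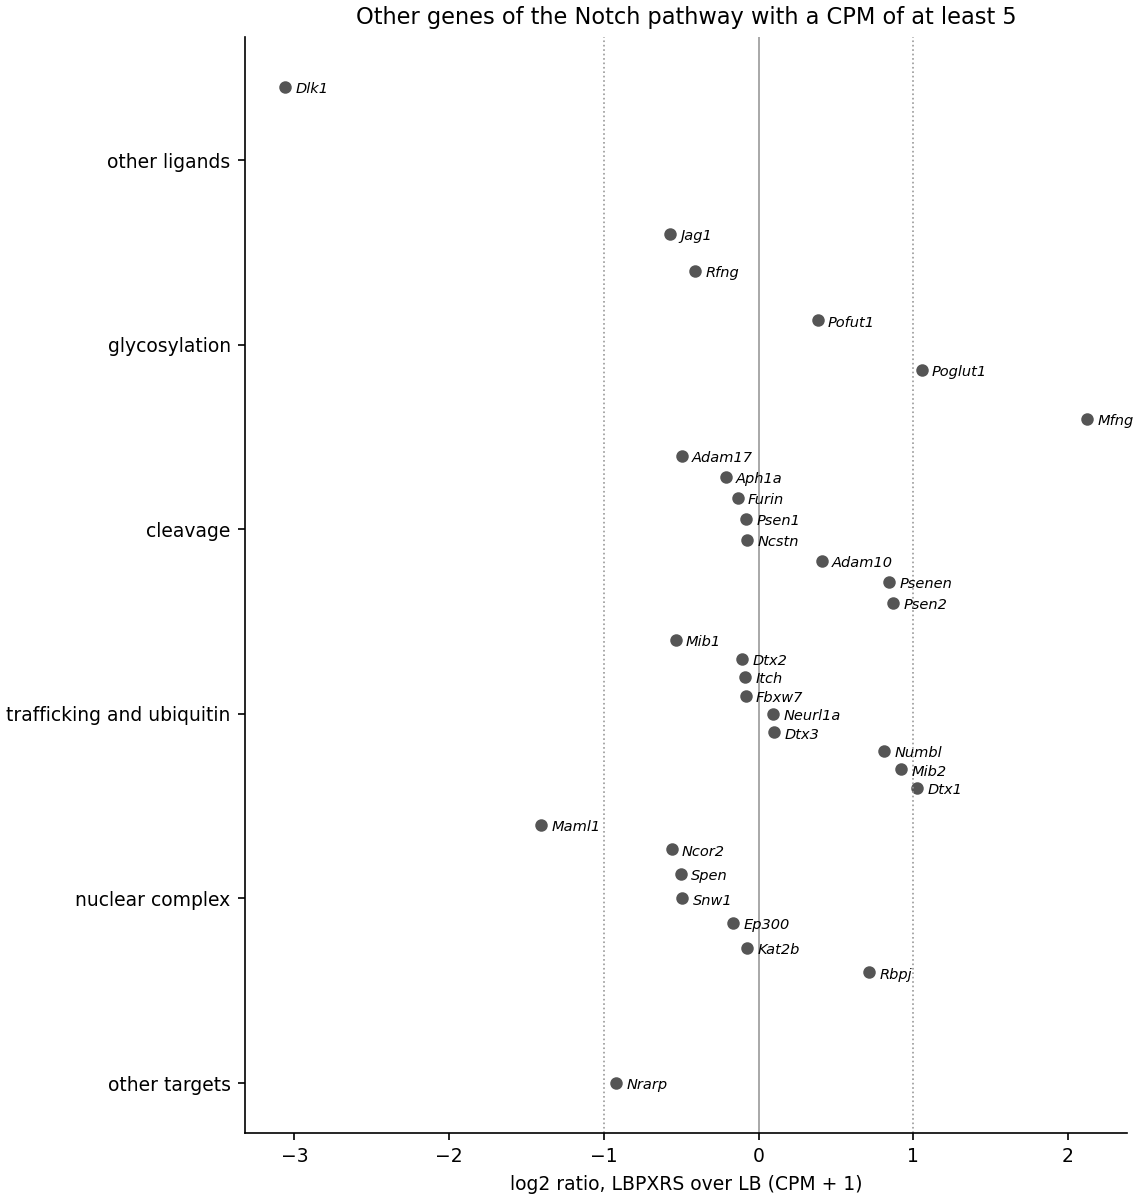
Log2 ratio of LBPXRS over LB, on the log2(CPM + 1) scale, for the 31 other pathway genes with at least 5 CPM in either library, grouped by role, with dotted lines at 2-fold. Mfng, Poglut1 and Dtx1 lie beyond the right line and Dlk1 and Maml1 beyond the left line.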

How the data were processed

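The deposited files hold whole UMI counts per gene and cell barcode, made by the authors with Cell Ranger 4.0.0 on mm10 per the submitters' processing notes; the gene annotation and strand setting are not given in the sources used here. Barcodes with at least 1000 genes and at most 10% mitochondrial UMIs were kept. Counts were summed per library and scaled to 1000000 (CPM), and log2 ratios set LBPXRS over LB after 1 CPM was added to each, which understates changes of low genes. Intervals are exact (Poisson, or Clopper-Pearson for shares) at 95% and cover counting error only. Shares were taken after thinning each cell to 5000 UMIs, which left out 50 LB and 84 LBPXRS cells.

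Each library was clustered with scanpy 1.11.5 (2000 variable genes, 30 principal components, 15 neighbours, Leiden resolution 0.5), without the 10 genes and the wider list. A class name needed at least 3 raised markers (log2 ratio of at least 1 at 5 CPM or more), a median log2 ratio of at least 1 over the class's markers, no other class with as many raised or with more among the 10 leading genes, and, in clusters below 1/3 of the median depth, a marker among those genes. Scrublet marked 12 LB (0.673%) and 14 LBPXRS cells (0.518%); they were kept, and with so few marked, doublets may remain. TMM factors came from edgeR 4.0.16. The code was checked on simulated counts. Gene positions are from GENCODE M21 on GRCm38, matched by identifier for 32158 of 32285 genes. The genes named are the 10 members, those of the wider list past 2-fold or described by role, partner factors, and for members found in at least 10% of LB cells the 3 genes with the most similar pattern; some of these values are not reported here. The members and lists were chosen with earlier results of these data known. Alternatives covered barcode filters, doublets, scaling, pseudocount, CPM minimum, fold, thinning, clustering and the LB cells compared.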

Additional observations from a re-analysis of the deposited data

How the results depend on the processing

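Over 8 alternatives of filtering, scaling and pseudocount, the log2 ratio of Dll3 ran from -1.47 to -1.01, of Notch2 from -1.46 to -1.14 and of Hes1 from 0.79 to 1.00, and none of the 10 genes changed sign. TMM scaling moved the median of all genes from -0.16 to -0.0075 and the share of 2-fold calls that were lower from 57.5% to 45.1%. Against naive pluripotent-like LB cells only, 0 members were at least 2-fold lower and 1, Hes1, at least 2-fold higher. Beside them 658 genes were lower (7.04% of 9343) and 939 higher (10.1%), and the wider list's median was 0.34. Dll3 reversed to 0.039. Notch1 (0.0067), Notch3 (0.15), Lfng (0.12), Hes6 (0.42) and Hey1 (0.44) also went above 0, Hes6 and Hey1 by more than counting error. Dll1 and Hes5, both below the 5 CPM minimum, differed from naive-like cells by more than counting error too. The LBPXRS level of Dll1 was 3.69 times the naive-like level (1.49 to 11.8), which rests on 5 UMIs. That of Hes5 was 0.348 times (0.173 to 0.703), from 18 naive-like UMIs. At a fold of 4, 0 members were lower, with 314 genes lower and 193 higher. At Leiden resolution 1, where the mesoderm-like class lost its Mesp1-led cells, Dll3 in that class against other LB cells reversed to -2.28 and Hey1 to -0.49, and Notch3 went from 1.11 to 0.010. Of 80 class-against-rest ratios under other clusterings, 66 moved by less than counting error and 12 by more, beside these 2. Smaller ratios also changed sign: Notch3 in streak-like cells (0.28 to -0.033 at resolution 1) and Hey1 in formative-like cells (-0.11 to 0.095, and to 0.048 when clustered with the members). No paired analysis was possible because each condition has 1 library. Depth limits Dll1 (40 and 56 UMIs), Hes5 (31 and 19; its thinned LB share was 0.289%, or 0.808% with another random seed) and Lfng (100 and 77), and the lack of replicate cultures limits every comparison.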

Other observations

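Across 1783 LB cells and 10950 genes, the log-normalised values of Dll3 were most like those of Rspo3 (Pearson r 0.50, or 0.37 in 1666 cells thinned to 10000 UMIs), Mesp1 (0.43 and 0.39) and Ptgds (0.40 and 0.32). Those of Hes6 were most like Pim2 (0.39 and 0.27), Dnmt3b (0.38 and 0.30) and Pou3f1 (0.27 and 0.17). Hes1 was most like Limd2 (0.35 and 0.31), S100a10 (0.33 and 0.34) and Prtg (0.31 and 0.25), and least like Utf1 (-0.37 and -0.33), a gene of pluripotent cells. All points come from 1 library and share depth, and no p is given. In LBPXRS the highest value for Hes1 was 0.18 and for Dll3 0.10, which in sparse counts is no finding.

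Notch2 gave a different set, chosen by the same rule: Cbx3 (0.39, or 0.27 thinned), Slc39a1 (0.38 and 0.29) and Actb (0.36 and 0.27), with Rpl27a lowest (-0.21 and -0.14). In LBPXRS, Slc39a1 and Cbx3 were among the 10 leading genes of a cluster of 320 cells led by Spry2 and Amt, and Notch2 there stood at 7.85 CPM, its highest value among the 7 LBPXRS clusters, whose median was 2.90 CPM.

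Barcodes left out by the filters also carried the genes. In 225 LB barcodes with 740013 UMIs in all, Hes1 stood at 62.2 CPM (45.5 to 82.9) while Notch1 (28.4 CPM, 17.6 to 43.4), Notch2 (33.8 CPM, 21.9 to 49.9), Notch3 (32.4 CPM, 20.8 to 48.3) and Dll1 (5.41 CPM, 1.47 to 13.8, from 4 UMIs) were above their levels in kept LB cells. In 406 LBPXRS barcodes with 728325 UMIs, Hes1 stood at 162 CPM (134 to 194) and Dll1 at 10.98 CPM (4.74 to 21.6) from 8 UMIs, above the 1.08 CPM of kept LBPXRS cells.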
